A study of Rattus norvegicus with 18 samples.

Results

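Kainate receptors are glutamate-gated ion channels built from the subunits GluK1 to GluK5, and the genes *Grik1* to *Grik5*, together with the genes of the auxiliary proteins *Neto1* and *Neto2*, were examined in the prefrontal cortex (PFC) of rat pups. The members were taken by gene symbol as the whole family, 7 of the 32623 genes listed, with no threshold on any value. All 7 passed the filter on low counts, which left 15703 genes to be tested. The family was selected on its symbols, with earlier results of these data known, among them the differences in expected count between SAL, PNO and IUO pups, so the differences between groups below are a description of these pups and nothing was read from how many of the genes differed.

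RNA was sequenced from the PFC of 18 Sprague Dawley pups at P14, with 6 pups in each of 3 groups. Dams of the SAL group received saline. Dams of the PNO group were given oxycodone (oxy), an opioid painkiller, by oral gavage at 15 mg/kg/day from parturition until weaning, so that their pups met the drug through the milk. Dams of the IUO group received 10 mg/kg/day for 5 days, were raised by 0.5 mg/kg/day over 10 days to 15 mg/kg/day, were then mated and kept on that dose through gestation until weaning, which added exposure in the womb. The comparisons ask whether levels differ with exposure after birth alone (PNO against SAL) or before and after birth (IUO against SAL). IUO against PNO asks the same of the added dosing of dams before mating and through gestation, which cannot be told apart. The dam or litter of each pup was not given in the sources used here, and p-values therefore measure the spread between these pups, some of which may share a dam.

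In the brain, kainate receptors act on both sides of the synapse, where they carry slow excitatory currents and adjust the release of glutamate and GABA. GluK1, GluK2 and GluK3 can form channels alone, while GluK4 and GluK5 bind kainate with high affinity and need one of the other 3 to reach the membrane as a working receptor. Neto1 and Neto2 are single-pass membrane proteins that attach to the channel and slow its gating.

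Promoter sequences are given first for *Grik2* and *Grik5*, the 2 genes with the clearest differences in IUO pups, and for *Grik3* and *Neto2*, the subunit and auxiliary genes that varied most from pup to pup. They are the 250 bases before the start of each gene in RefSeq (build GRCr8), where 7 of 7 genes were matched. Capitals mark every match on either strand to the GC box GGGCGG, the TATA box TATAAA, the CRE half-site TGACG or the E-box CACGTG, with overlapping matches counted separately.
*Grik2* (chr20:54415284-54415533, minus strand): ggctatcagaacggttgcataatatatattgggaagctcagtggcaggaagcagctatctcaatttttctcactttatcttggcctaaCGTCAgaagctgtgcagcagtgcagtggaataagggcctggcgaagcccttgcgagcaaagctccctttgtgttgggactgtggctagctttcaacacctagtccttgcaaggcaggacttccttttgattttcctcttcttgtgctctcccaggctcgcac
*Grik5* (chr1:89794910-89795159, minus strand): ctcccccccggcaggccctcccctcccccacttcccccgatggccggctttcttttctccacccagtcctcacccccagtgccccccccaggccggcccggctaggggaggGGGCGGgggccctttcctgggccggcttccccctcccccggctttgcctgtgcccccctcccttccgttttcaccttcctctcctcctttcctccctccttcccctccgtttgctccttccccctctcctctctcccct
*Grik3* (chr5:143052192-143052441, plus strand): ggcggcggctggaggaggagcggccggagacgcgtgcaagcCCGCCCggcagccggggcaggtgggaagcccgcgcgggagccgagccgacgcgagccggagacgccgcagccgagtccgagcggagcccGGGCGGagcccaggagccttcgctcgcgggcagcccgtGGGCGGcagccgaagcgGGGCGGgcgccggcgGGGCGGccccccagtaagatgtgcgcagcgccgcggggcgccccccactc
*Neto2* (chr19:37517305-37517554, plus strand): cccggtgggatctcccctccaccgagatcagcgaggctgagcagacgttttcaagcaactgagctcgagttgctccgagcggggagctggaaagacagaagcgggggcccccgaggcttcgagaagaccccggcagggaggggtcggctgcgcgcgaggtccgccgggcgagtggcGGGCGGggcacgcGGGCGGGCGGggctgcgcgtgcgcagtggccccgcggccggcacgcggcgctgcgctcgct

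The *Grik3* stretch held 5 GC boxes and 41 CpG sites at 81.6% GC, and the *Neto2* stretch 3 GC boxes and 35 CpG sites at 74.4% GC. The *Grik5* stretch was also rich in GC (70.8%) but held only 10 CpG sites and 1 GC box. The *Grik2* stretch had 49.6% GC, 5 CpG sites and 1 CRE half-site. Among 33469 promoter stretches of the same length, the median was 51.2% GC with 5 CpG sites, 99.0% had fewer CpG sites than *Grik3* and 97.4% fewer than *Neto2*. A GC box was present in 30.5% of all stretches, a CRE half-site in 18.2%, a TATA box in 12.9% and an E-box in 5.6%. None of the other 3 family members (*Grik1* at 57.6% GC, *Neto1* at 56.8% and *Grik4* at 43.2%) held any of these motifs in the window. These matches describe letters in the reference, and binding was not measured.

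Summed expected counts per pup lay between 18381809 and 26084735, and no pair of pups within a group was close enough to be 1 library counted again. The mitochondrial share of counts ran from 7.47% to 17.4%, and the mean transcript length of a library (effective gene length weighted by TPM) from 1420 to 1786 bases. Excitatory cortical neuron markers were present in every pup, with all 6 measured and their summed level between 1138 and 2670 CPM. Markers of neighbouring regions were also present and differed widely between pups of 1 group. Summed striatal markers ran from 195 to 1635 CPM within SAL, and choroid plexus markers from 8.47 to 552 CPM, with *Otx2* at 0 in a SAL pup. Since whole tissue was sequenced, fewer cells of a type and less RNA per cell cannot be told apart.

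Levels between genes were compared in TPM, a unit that accounts for gene length and for the total of each library. *Grik5* was the most abundant gene of the family in all 18 pups, at 103 ± 15.6 TPM (SD, n = 18), above 90.3% of the genes tested. *Neto2* followed at 38.2 ± 11.9 TPM, *Neto1* at 31.7 ± 8.07 TPM and *Grik2* at 25.1 ± 5.95 TPM. *Grik4*, at 15.5 ± 1.80 TPM, *Grik1*, at 13.9 ± 1.79 TPM, and *Grik3*, at 8.04 ± 5.77 TPM, were the lowest.

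Not every neighbour in that order was separated. *Grik5* exceeded *Neto2*, and *Grik2* exceeded *Grik4*, in 18 of 18 pups. *Neto2* exceeded *Neto1* in 14 of 18 pups and *Neto1* exceeded *Grik2* in 14 of 18, so these 3 genes overlapped. *Grik4* was above *Grik1* in 16 of 18 pups, by a median ratio of only 1.13, and *Grik1* was above *Grik3* in 16 of 18.

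**Figure D1:**
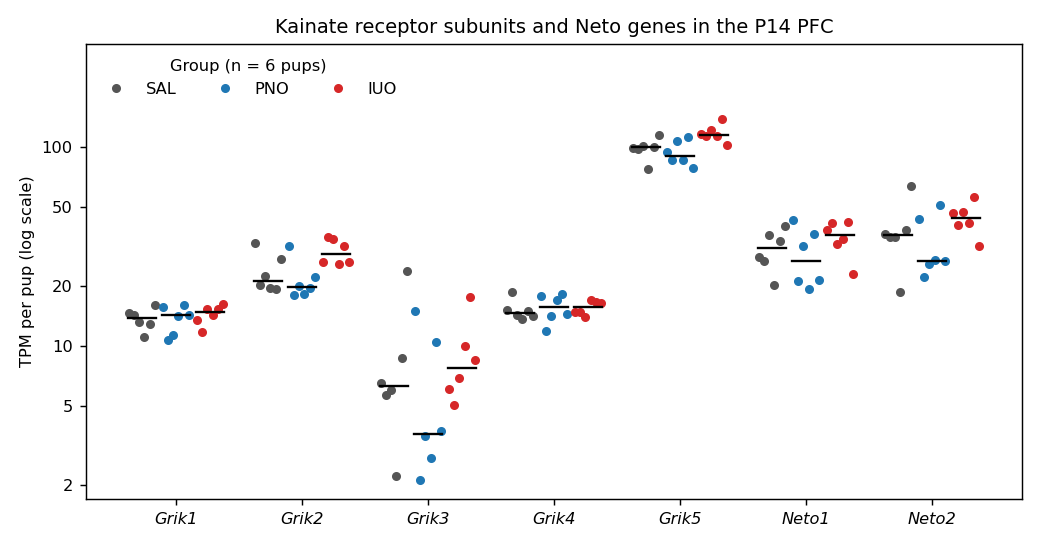
TPM of each gene in each pup (points) on a log axis, grouped as SAL, PNO and IUO with 6 pups each, with black bars at the group medians. *Grik5* stands above the other genes in every pup, while *Grik3* spreads from 2.11 to 23.9 TPM.

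*Grik5*, which encodes the high-affinity subunit GluK5, supplied 62.4% ± 3.36 (SD, n = 18) of the summed TPM of the 5 subunit genes. Among the subunits able to form channels alone, *Grik2* gave 15.1% ± 2.43, *Grik1* 8.48% ± 1.09 and *Grik3* 4.58% ± 2.76. *Grik4* gave 9.47% ± 1.46. The *Grik5* share was nearly the same in each group, with 61.9% ± 2.54 in SAL, 62.3% ± 5.29 in PNO and 63.0% ± 1.74 in IUO pups (SD, n = 6). GluK4 and GluK5 transcripts together outweighed those of GluK1 to GluK3 by a ratio of 2.60 ± 0.427 over all pups, and the ratio ranged from 1.80 to 3.46. These are shares of transcripts, and receptor protein was not measured.

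**Figure D2:**
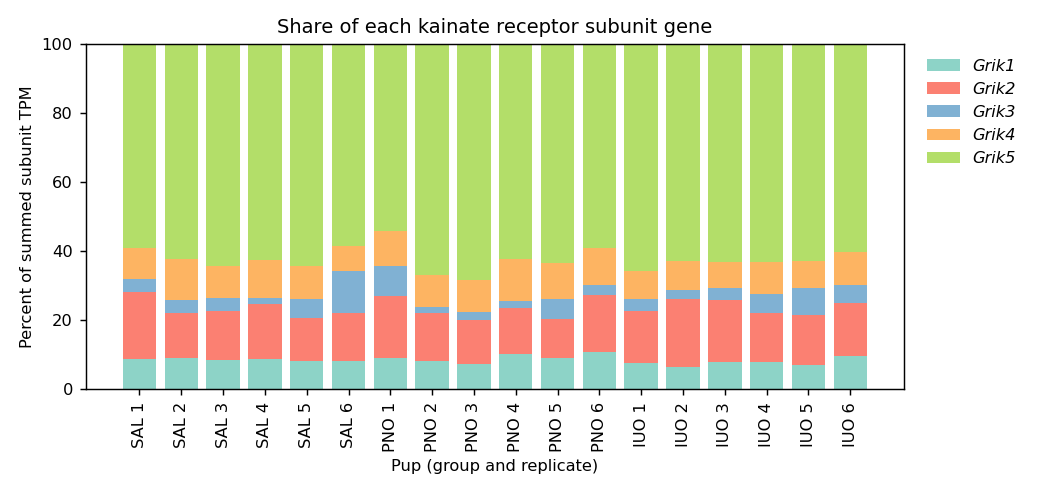
Share of the summed TPM of *Grik1* to *Grik5* taken by each gene in each pup, in percent, with 1 bar per pup. *Grik5* takes between 54.0% and 68.5% in all 18 bars, and *Grik3* between 1.64% and 12.2%.

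The summed subunit TPM was 160 ± 23.2 in SAL, 151 ± 20.9 in PNO and 187 ± 17.6 in IUO pups (SD, n = 6). Against the AMPA, NMDA and delta receptor genes, the other ionotropic glutamate receptors, kainate subunits made up a median 21.3% of receptor TPM in SAL pups (19.1% to 23.2%), 20.9% in PNO pups (19.3% to 24.2%) and 23.6% in IUO pups (23.1% to 24.9%). The 3 ranges overlapped, with the lowest IUO pups below the highest SAL pup and the highest PNO pup.

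Differences between groups were fitted on counts with edgeR's quasi-likelihood test in 1 model of the 18 pups, and levels for them are given as CPM (counts scaled to the normalized library size, comparable between pups but not between genes). No kainate or Neto gene passed an adjusted p of 0.05 in any comparison with this test. Over all 15703 genes the share called was 0% for PNO and 0% for IUO pups relative to SAL, with 706 and 1081 genes at an unadjusted p under 0.05, and 0.0637% (10 genes) for IUO relative to PNO. DESeq2 called 1, 49 and 436 genes in these comparisons, and none of the 7 among them. Limma-voom with sample quality weights called 2 of the 7, *Grik3* (log2 difference 1.06, limma adjusted p = 0.0462) and *Grik5* (0.22, limma adjusted p = 0.0416), both higher in IUO than in PNO, where it called 2028 genes in all.

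*Grik2*, the gene of the widely expressed channel-forming subunit GluK2, had a median of 63.2 CPM in SAL pups (55.2 to 88.3), 61.3 CPM in PNO pups (52.1 to 79.6) and 78.3 CPM in IUO pups (70.4 to 102). Every IUO pup was above the median of both other groups, but the groups overlapped, and SAL replicate 1, at 88.3 CPM, exceeded 4 of the IUO pups. The fitted difference was 0.36 on the log2 scale for IUO against SAL (SE 0.13, edgeR adjusted p = 0.556) and 0.40 for IUO against PNO (SE 0.13, edgeR adjusted p = 0.159). PNO against SAL was close to zero at -0.04 (SE 0.13, edgeR adjusted p = 0.959). With 1 pup left out it ran from -0.12 (without PNO replicate 1) to 0.06 (without SAL replicate 1).

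In CPM, *Grik5* varied little among SAL pups, with a median of 223 CPM and a range of 216 to 238. PNO pups had a median of 229 CPM and spread on both sides of this range, from 195 to 280. IUO pups had a median of 271 CPM and ran from 241 to 291. In this unit all 6 lay above all 6 SAL pups, while 2 of them lay above every PNO pup. In TPM the IUO and SAL pups overlapped, with SAL pups from 77.9 to 115 TPM and IUO pups from 102 to 138 TPM. The fitted difference was 0.26 for IUO against SAL (SE 0.08, edgeR adjusted p = 0.487), 0.23 for IUO against PNO (SE 0.08, edgeR adjusted p = 0.176) and 0.02 for PNO compared with SAL (SE 0.08, edgeR adjusted p = 0.963), all on the log2 scale. With 1 pup left out, PNO relative to SAL ran from -0.04 (without PNO replicate 3) to 0.07 (without PNO replicate 6).

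At an unadjusted p under 0.05, *Grik2* and *Grik5* were the 2 of 7 genes higher in IUO, both against SAL, where 3.02% of all genes were higher and 3.87% lower at that level, and against PNO, where 6.14% were higher and 9.14% lower. None of the 7 was lower in IUO. Between PNO and SAL none of the 7 reached it, with 1.89% of all genes higher and 2.6% lower. In CPM, *Grik5* in IUO against SAL was the 1 case in which the groups did not overlap. Such a separation was seen in 0.369% of all genes with IUO higher and 0.376% with IUO lower. No gene of the family was separated between IUO and PNO (0.796% of all genes higher, 0.86% lower) or between PNO and SAL (0.0509% higher, 0.0573% lower).

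**Figure D3:**
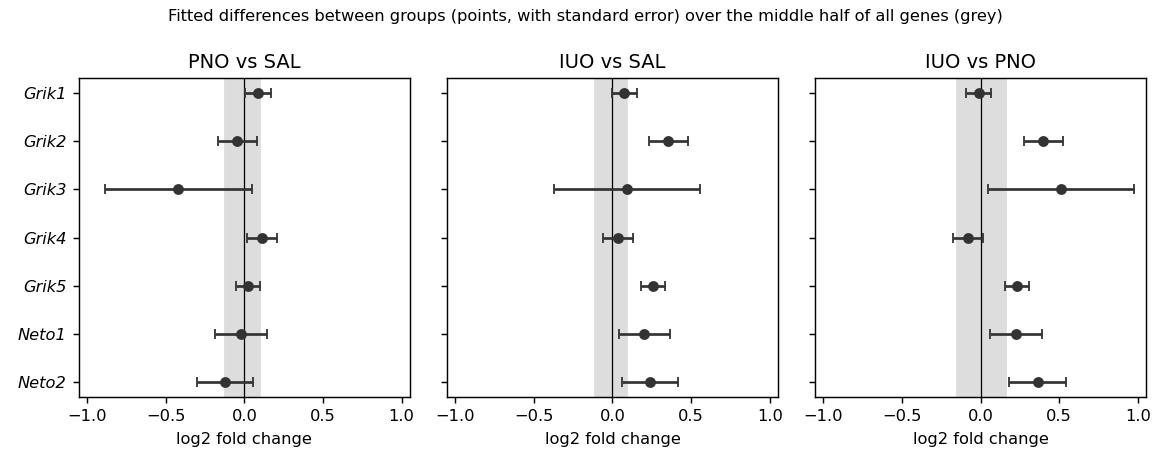
Fitted log2 fold change of each gene (points) with its standard error (bars) in the 3 comparisons, where grey spans the middle 50% of all 15703 genes. *Grik2*, *Grik5*, *Neto1* and *Neto2* lie to the right of the grey band in both comparisons with IUO, and *Grik3* has the widest bars.

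*Grik1*, the gene of GluK1, which in cortex is found largely in interneurons, had similar medians in the groups. Its median was 24.0 CPM in SAL pups (23.5 to 25.2), 26.3 CPM in PNO pups (22.2 to 28.9) and 24.8 CPM in IUO pups (21.8 to 30.0). All 3 groups overlapped, and the fitted log2 differences were 0.09 for PNO and 0.07 for IUO pups relative to SAL, and -0.01 for IUO relative to PNO, each with SE 0.08. The 95% interval for IUO against PNO ran from -0.18 to 0.16, and its sign turned in 6 of 23 settings. IUO relative to SAL was 0.02 without IUO replicate 6, and PNO relative to SAL was 0.05 without PNO replicate 4.

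*Grik4*, the gene of the second high-affinity subunit GluK4, had overlapping CPM in the groups, unlike the CPM of *Grik5* in IUO and SAL pups. Its median was 30.1 CPM in SAL pups (24.2 to 37.1), 32.6 CPM in PNO pups (28.1 to 39.0) and 30.9 CPM in IUO pups (28.4 to 34.0). The IUO pups fell inside the SAL range, and the fitted log2 difference was 0.04 for IUO against SAL (SE 0.09, 95% interval -0.17 to 0.24) and -0.08 for IUO against PNO (SE 0.09). PNO relative to SAL was 0.11 (SE 0.09). With 1 pup left out, IUO relative to SAL ran from -0.03 (without SAL replicate 6) to 0.10 (without SAL replicate 2), PNO relative to SAL from 0.05 to 0.18 without the same pups, and IUO relative to PNO from -0.12 (without PNO replicate 2) to -0.03 (without PNO replicate 4).

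*Grik3*, the gene of GluK3, a subunit with low sensitivity to glutamate, varied far more between pups than any other member. Its level ran from 5.92 to 45.0 CPM in SAL (median 13.6), from 5.48 to 30.2 CPM in PNO (median 8.93) and from 11.7 to 35.9 CPM in IUO pups (median 17.5), an 8.22-fold range over the 18 pups. The groups overlapped, although 4 of the 6 PNO pups lay below the lowest IUO pup. Expected counts behind these values lay between 104 and 1093, and the part of counting error in this spread was not tested.

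The fitted *Grik3* difference was -0.42 for PNO (SE 0.47) and 0.09 for IUO pups (SE 0.46) relative to SAL, and 0.51 for IUO relative to PNO (SE 0.47, edgeR adjusted p = 0.618). The 95% interval of the last ran from -0.48 to 1.51. Single pups moved it widely. With 1 pup left out, PNO relative to SAL ran from -0.82 (without PNO replicate 1) to 0.07 (without SAL replicate 6), and IUO relative to SAL from -0.18 (without IUO replicate 5) to 0.58 (without SAL replicate 6), with -0.09 without SAL replicate 4. IUO relative to PNO ran from 0.24 (without IUO replicate 5) to 0.90 (without PNO replicate 1). With the myelin score as a covariate, all 3 signs turned (0.18, -0.10 and -0.28).

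*Neto1*, whose protein also binds NMDA receptors, had a median of 65.7 CPM in SAL pups (52.5 to 77.8), 64.1 CPM in PNO pups (47.6 to 83.7) and 77.5 CPM in IUO pups (51.0 to 93.0). The lowest IUO pup lay below every SAL pup and 3 IUO pups lay above every SAL pup. The log2 difference was 0.20 for IUO relative to SAL and 0.22 relative to PNO, each with SE 0.16. Without IUO replicate 2, the highest IUO pup, these were 0.13 and 0.15. Over 23 settings, IUO relative to SAL ran from 0.07 to 0.29 and IUO relative to PNO from 0.09 to 0.33.

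*Neto2* had a median of 33.1 CPM in SAL pups (21.2 to 50.5), 28.3 CPM in PNO pups (24.4 to 45.5) and 41.9 CPM in IUO pups (30.6 to 48.1). All 6 IUO pups exceeded the PNO median, yet only 1 exceeded every PNO pup. The log2 difference was 0.36 for IUO against PNO (SE 0.18, edgeR adjusted p = 0.345), 0.24 for IUO against SAL (SE 0.18) and -0.12 for PNO against SAL (SE 0.18). Single pups and covariates moved these values. IUO relative to PNO was 0.07 with the myelin score, the lowest of 23 settings, and the highest was 0.48. IUO relative to SAL was 0.13 without SAL replicate 4, 0.37 without SAL replicate 6 and 0.13 with the myelin score as a covariate. PNO relative to SAL was -0.23 without SAL replicate 4, 0.01 without SAL replicate 6, -0.06 without PNO replicate 2, -0.25 without PNO replicate 5, -0.08 without PNO replicate 6, 0.06 with the myelin score and 0.01 with transcript length.

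The median over the 7 genes was -0.02 for PNO pups relative to SAL, 0.20 for IUO relative to SAL and 0.23 for IUO relative to PNO, where the median of all genes was within 0.01 of zero in each. The 13 other ionotropic glutamate receptor genes had medians of -0.04, 0.01 and 0.21 in the same order, so the median relative to PNO was close to that of the kainate family. These comparisons share groups, and their values for a gene are not independent of each other.

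Fitted differences of cell type markers leaned to 1 side in several lists, but only 1 marker passed the adjusted threshold, in IUO against PNO. Markers of 1 list can rise and fall together, so counts within a list are not independent. At an unadjusted p under 0.05, 1.89% of all genes were higher and 2.6% lower in PNO against SAL. The shares were 3.02% and 3.87% in IUO against SAL, and 6.14% and 9.14% in IUO against PNO. In PNO relative to SAL, 9 of 9 myelin markers were higher, 2 at an unadjusted p under 0.05 (median log2 difference 0.75), 7 of 7 choroid plexus markers were higher (0.70) and 9 of 9 striatal markers lower (-0.29), the last 2 lists with none at that level. Against PNO, 9 of 9 myelin markers were lower in IUO, all at that level, and their summed level ran from 2933 to 14851 CPM in PNO and from 2211 to 5644 CPM in IUO pups. Against SAL, where the sums ran from 1731 to 9326 CPM, 9 of 9 were also lower in IUO, 1 at that level (median log2 difference -0.61). Oligodendrocyte precursor markers were lower in IUO than in PNO in 4 of 4 cases, 2 at that level, with sums from 302 to 467.6 CPM in PNO and from 260.2 to 387 CPM in IUO pups.

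Choroid plexus markers were lower in IUO in 7 of 7 cases against PNO, 1 at that level (median log2 difference -1.38), and in 7 of 7 against SAL, none at that level (-0.62). Their sums ran from 10.1 to 984 CPM in PNO and from 4.18 to 261 CPM in IUO pups. Striatal markers were higher in IUO in 9 of 9 cases against PNO and 9 of 9 against SAL, none at that level, with sums from 236 to 1387 CPM in PNO, from 195 to 1635 CPM in SAL and from 436 to 1990 CPM in IUO pups. Deep layer cortical markers were higher in IUO in 6 of 6 cases, 2 at that level against PNO and none against SAL, with sums from 466 to 591 CPM in PNO, from 423 to 620 CPM in SAL and from 585 to 762 CPM in IUO pups. Excitatory cortical neuron markers were higher in IUO in 6 of 6 cases against SAL and 5 of 6 against PNO, none at that level, with sums from 1138 to 2670 CPM in SAL, from 1498 to 2486 CPM in PNO and from 1254 to 2492 CPM in IUO pups. Thalamic markers, which *Grik5* ran against within groups, were lower in IUO in 3 of 4 cases in both comparisons, none at that level (median log2 difference -0.29 against SAL and -0.38 against PNO), with sums from 41.8 to 264 CPM in SAL, from 55.0 to 300.5 CPM in PNO and from 66.7 to 289 CPM in IUO pups.

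The marker that passed the adjusted threshold, named after its values were seen, was *Pvalb*, of the calcium buffer parvalbumin, which marks a class of inhibitory neurons. It ran from 2.60 to 5.93 CPM in IUO and from 10.4 to 33.5 CPM in PNO pups, with no overlap (log2 difference -2.34, SE 0.41, edgeR adjusted p = 0.0356). SAL pups ran from 3.42 to 24.6 CPM and overlapped both. The log2 difference was -1.55 for IUO against SAL (edgeR adjusted p = 0.343) and 0.78 for PNO against SAL (edgeR adjusted p = 0.912). Of the 8 inhibitory neuron markers, 4 were higher and 4 lower in IUO than in PNO, and no other reached an unadjusted p under 0.05. Their summed level ran from 687 to 1097 CPM in IUO and from 708 to 1095 CPM in PNO pups. Of the 5 microglia markers, 4 were higher and 1 lower in IUO than in PNO, and 2 were higher and 3 lower than in SAL. *Tmem119* was the only one at that level in both comparisons with IUO. It was at -1.32 against PNO (SE 0.24, edgeR adjusted p = 0.0524) and -1.34 against SAL (SE 0.24, edgeR adjusted p = 0.0997). Of the 6 astrocyte markers, 2 were lower in IUO than in PNO at that level, none past adjustment.

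With the striatal score in the model, the *Grik2* difference was 0.27 for IUO relative to SAL (SE 0.12) and 0.30 relative to PNO (SE 0.12), and that of *Grik5* was 0.23 (SE 0.08) and 0.21 (SE 0.08). With the myelin score, the *Grik2* difference was 0.42 and 0.55 and that of *Grik5* 0.23 and 0.18. *Neto1* was 0.07 (SE 0.16) relative to SAL and 0.09 (SE 0.16) relative to PNO with the striatal score. *Neto2* for IUO against PNO was 0.07 (SE 0.19) with the myelin score, and *Grik3* was -0.28 (SE 0.58). The part of deep layer, excitatory neuron, inhibitory neuron, microglia, astrocyte, thalamic, choroid plexus or oligodendrocyte precursor transcripts in these differences was not tested.

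Within groups, the 7 genes differed in what they moved with, which the choice of the family did not use. Library measures were added after the data had been seen, and 14 relations with them were computed over 18 pups after removing group means. *Grik3* followed the mean transcript length with Pearson's r = 0.96 (permutation p = 3e-05, adjusted p = 0.00028) and Spearman's rho = 0.89 (permutation p = 6e-05, adjusted p = 0.00042). Without the 2 pups farthest from the median length r was 0.94, and within SAL, PNO and IUO it was 0.98, 0.98 and 0.87.

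*Neto2* did the same with r = 0.88 (permutation p = 0.00011, adjusted p = 0.000513) and rho = 0.85 (permutation p = 0.0003, adjusted p = 0.0014), 0.84 without the 2 farthest pups, and 0.98, 0.88 and 0.63 within SAL, PNO and IUO. The 2 library measures are not independent, since mitochondrial transcripts enter the TPM-weighted mean length. SAL replicate 4, for example, had both the shortest mean length (1420 bases) and the highest mitochondrial share (17.4%). *Grik3* and *Neto2* both ran opposite to the mitochondrial share of counts. For *Grik3* r was -0.91 (permutation p = 4e-05, adjusted p = 0.00028), with rho = -0.92 (permutation p = 3e-05, adjusted p = 0.00042) and r = -0.90 without the 2 farthest pups. For *Neto2* r was -0.82 (permutation p = 0.00071, adjusted p = 0.00249), with rho = -0.74 (permutation p = 0.00262, adjusted p = 0.00917), but within IUO it was only -0.37.

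*Neto1* had r = 0.52 with transcript length (permutation p = 0.0422, adjusted p = 0.114), which did not pass. For *Grik1*, *Grik2*, *Grik4* and *Grik5* r with transcript length lay between -0.32 and 0.10. With transcript length in the count model, the SE of the *Grik3* difference between IUO and PNO went from 0.47 to 0.14 and the difference itself was 0.32, while *Neto2* was 0.24 (SE 0.09), *Grik2* 0.40 and *Grik5* 0.24. None of the 4 passed the adjusted threshold in that fit. The source of the differences in transcript length between libraries was not tested.

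**Figure D4:**
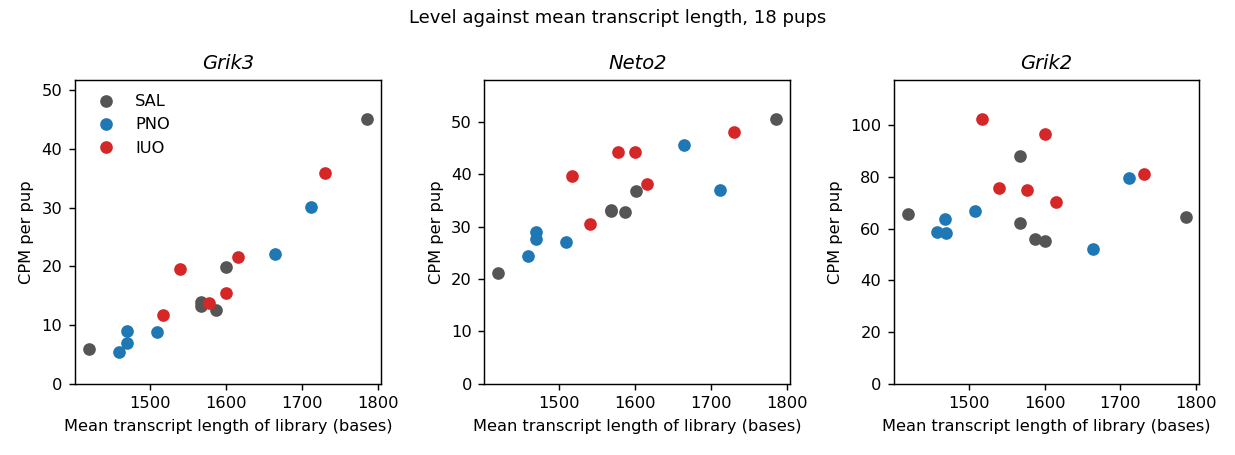
CPM of *Grik3*, *Neto2* and *Grik2* in each pup against the mean transcript length of its library in bases, coloured by group. *Grik3* and *Neto2* climb with length in all 3 groups, whereas *Grik2* is scattered.

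Scores of 12 cell type marker lists gave 84 relations with the 7 genes over the same 18 pups, of which 3 passed for Pearson's r and 0 for Spearman's rho after adjustment. *Neto2* went with upper layer cortical markers at r = 0.82 (permutation p = 0.00017, adjusted p = 0.0143) and rho = 0.71 (permutation p = 0.00169, adjusted p = 0.0739). *Grik3* did so at r = 0.76 (permutation p = 0.00081, adjusted p = 0.0227) and rho = 0.70 (permutation p = 0.00215, adjusted p = 0.0739). Leaving out the 2 farthest pups gave 0.68 and 0.61. Given transcript length, the partial r of *Neto2* was 0.43 and that of *Grik3* was 0.01, neither of which passed.

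*Grik5* ran against thalamic markers at r = -0.66 (permutation p = 0.00058, adjusted p = 0.0227) and rho = -0.68 (permutation p = 0.00305, adjusted p = 0.0739). It was -0.78 in SAL pups, -0.79 in PNO pups and -0.83 in IUO pups taken alone, and -0.67 without the 2 farthest pups. Given transcript length it was -0.69 (permutation p = 0.00147, adjusted p = 0.0271), and *Grik5* then also went with upper layer markers at 0.82 (permutation p = 0.00013, adjusted p = 0.0109). The other 3 partial relations that passed were those of *Grik2* with excitatory cortical neuron markers at -0.78 (permutation p = 0.00086, adjusted p = 0.0263), and *Neto1* with deep layer markers at 0.74 (permutation p = 0.00094, adjusted p = 0.0263) and with striatal markers at 0.70 (permutation p = 0.00161, adjusted p = 0.0271).

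**Figure D5:**
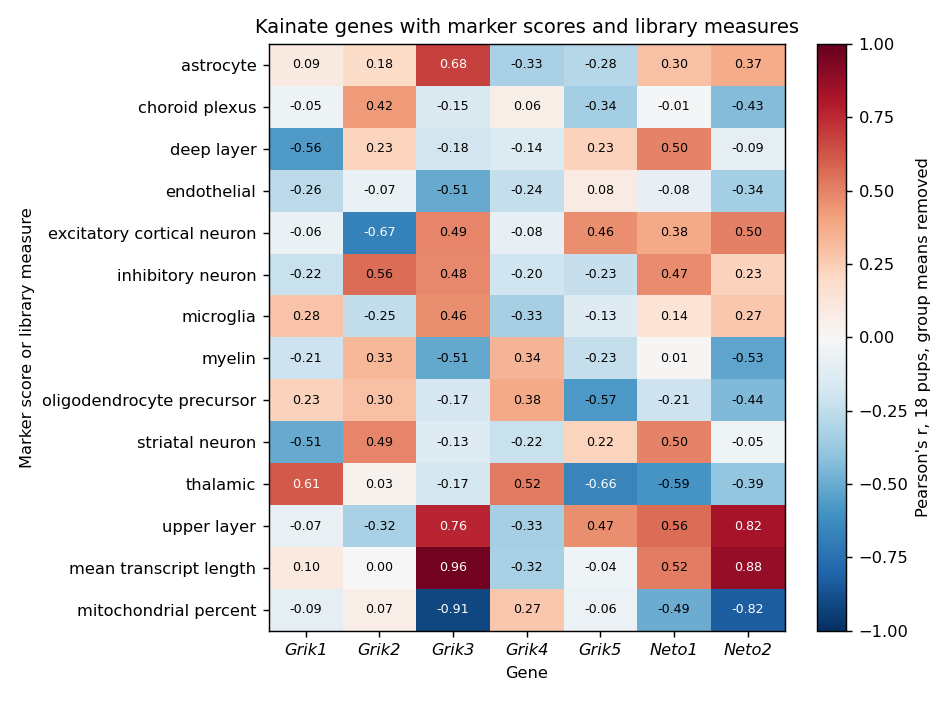
Pearson's r of each gene (columns) with the score of each marker list and with 2 library measures (rows) over 18 pups, with group means removed. *Grik3* has r = 0.96 with mean transcript length and -0.91 with the mitochondrial share, and *Neto2* has 0.88 and -0.82.

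Among the genes themselves, given as a description over 18 pups that share library effects, *Grik3* and *Neto2* were most alike (r = 0.81), followed by *Neto1* and *Neto2* (r = 0.64). *Grik1* and *Neto1* ran opposite to each other (r = -0.59). *Grik2* was nearly unrelated to *Grik3* (r = -0.01) and ran at r = -0.22 with *Grik5*, although both were higher in IUO pups.

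The genes most like each member over all tested genes were taken as the 3 with the highest r over the 18 pups. For *Grik3* these were *Dlg2* (r = 0.99), a synaptic scaffold gene, *Dnal1* (0.98) and *Pcdhgc3* (0.98), and 786 genes had r over 0.9 with it. *Neto2* came with *Zcchc6*, *Ints7* and *Pdzd8* (0.93 each) and 29 genes over 0.9. *Neto1* was closest to *Slc24a2* (0.90), *Ppp3ca* (0.87), a calcineurin catalytic subunit, and *Fnip1* (0.85). For *Grik2* they were *Smad3* (0.87), *Ppp1r2* (0.86) and *Slc24a1* (0.84), for *Grik5* *Ppp2r5a* (0.87), *Vps37b* (0.86) and *LOC102552640* (0.86), for *Grik1* *Wnt2b* (0.80), *Slc41a3* (0.80) and *Zbtb7c* (0.79), and for *Grik4* *Itga3* (0.80), *B3gnt7* (0.78) and *Pim3* (0.77).

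Of the 13 other ionotropic glutamate receptor genes none passed the adjusted threshold in any comparison. For IUO against SAL, 1 was higher and 1 lower at an unadjusted p under 0.05 (3.02% and 3.87% of all genes). *Grid1*, of a delta receptor, had 47.3 ± 3.42 CPM in IUO and 36.8 ± 2.39 CPM in SAL pups (SD, n = 6), and the lowest IUO pup (43.8 CPM) was above the highest SAL pup (39.5 CPM), a separation shared by 0.369% of all genes. Its log2 difference was 0.36 (SE 0.09, edgeR adjusted p = 0.264). *Grin2c*, of an NMDA receptor subunit, had 65.9 ± 7.94 CPM in IUO against 79.9 ± 12.8 CPM in SAL (log2 difference -0.28, SE 0.12).

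For IUO against PNO, 1 of the 13 was higher and 2 were lower at that level (6.14% and 9.14% of all genes). *Gria4*, of an AMPA receptor subunit, had 93.1 ± 9.55 CPM in IUO and 121 ± 20.3 CPM in PNO pups (log2 difference -0.37, SE 0.12, edgeR adjusted p = 0.152). *Grin2c* was again lower (log2 difference -0.35, SE 0.12, edgeR adjusted p = 0.193). None of the 13 reached that level for PNO against SAL, where *Grid1* (0.15, SE 0.09) and *Gria4* (0.16, SE 0.12) had the smallest p-values. Whatever the p, 8 of the 13 had a fitted difference above zero in IUO relative to PNO, as did 49.9% of all genes, and 8 of 13 relative to SAL, as did 48.0% of all genes.

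The 15 genes of kainate receptor partners and modifiers also gave none past the adjusted threshold. *Klhl17*, whose product actinfilin directs GluK2 to degradation, was lower in PNO (17.8 ± 1.44 CPM) than in SAL pups (22.3 ± 2.49 CPM), by -0.32 on the log2 scale (SE 0.09, edgeR adjusted p = 0.912), and at -0.20 in IUO than in SAL pups (SE 0.09). *Grip1*, a scaffold for glutamate receptors, was -0.29 in PNO against SAL (SE 0.15), and *Cdh2*, of the adhesion protein N-cadherin, was 0.15 in IUO against SAL (SE 0.09).

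*C1ql2*, a synaptic organiser that binds kainate receptors at mossy fiber synapses, had 4.56 ± 2.13 CPM in IUO and 10.7 ± 5.32 CPM in PNO pups (log2 difference -1.23, SE 0.47, edgeR adjusted p = 0.230). *Ctnnb1*, of beta-catenin, was 0.29 in IUO against PNO (SE 0.12, edgeR adjusted p = 0.271).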

How the data were processed

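RNA-seq libraries (TruSeq kit, single reads) came from the PFC of 18 pups, grouped by the sample titles. For each gene the authors deposited an expected count, in which reads that match several genes are divided by estimation, and it is not normalized. The TPM values the authors deposited are scaled to one total per pup and were used for levels between genes, and the FPKM values the authors deposited were not used. The aligner, quantifier, annotation and genome build are not given in the sources used here. All 126 values of the 7 genes were whole numbers.

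Tests ran on rounded expected counts in R 4.3.3 with edgeR 4.0.16 (TMM, filterByExpr, quasi-likelihood test, 1 model of 3 groups, 15 residual degrees of freedom, two-sided), with Benjamini-Hochberg adjustment over 15703 genes. CPM is TMM-normalized (prior count 2 on the log2 scale). Relations used 100000 permutations within groups, two-sided. Alternatives used DESeq2 1.42.0, limma-voom (limma 3.58.1), other filters and scalings, covariates, a replicate block and each pup left out. Scripts were tested on simulated data. Python 3.11.15 and matplotlib 3.10.9 were used for tables and plots.

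The members and lists were chosen with earlier results of these data known. The genes named are the 7 members, in each comparison the 2 genes with the smallest p of each of the 2 pathway lists, and the 3 genes most like each member. Of the marker genes, *Cux1* stood on more than 1 row, and the row with more counts was used, and *Pecam1* was not matched.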

Additional observations from a re-analysis of the deposited data

Results flagged for a closer look

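In 42 sets of 6 values (7 genes, 3 groups, CPM and TPM), 2 held a pup far from the rest of its group, where chance alone picks out about 1 set in 20. Distance was judged on a log scale, by the gap to the nearest pup as a part of the range of the group. The count of 2 depends on that scale. *Grik2* stood at 88.3 CPM in SAL replicate 1, with the nearest SAL pup at 65.5 CPM. That pup had the highest striatal score of the SAL pups (7.02) and the lowest excitatory cortical neuron score of all pups (5.95). SAL replicate 3, with a striatal score of 6.75, stood at 62.0 CPM. With group means removed, *Grik2* had r = 0.49 with striatal and -0.67 with excitatory cortical neuron scores. Neither passed adjustment. The part of tissue makeup in the level of SAL replicate 1 was not tested. *Grik4* stood at 18.7 TPM in SAL replicate 2, with the nearest SAL pup at 15.1 TPM. *Grik3* in SAL replicate 6 was not picked out on the log scale, although it stood at 23.9 TPM with the next highest SAL pup at 8.71 TPM.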

How the results depend on the processing

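Over 23 settings of the fitted models, *Grik2* was 0.27 to 0.45 higher in IUO than in SAL and 0.30 to 0.55 higher than in PNO (log2), and *Grik5* 0.23 to 0.29 and 0.18 to 0.30 higher. Both kept an unadjusted p under 0.05 in every setting, except *Grik5* against PNO with the myelin score as a covariate. *Grik3* against PNO ran from -0.28 (myelin score) to 1.06 (limma-voom). Signs differed from those reported in 28 of 483 values, none of them for *Grik2* or *Grik5* in comparisons with IUO. Limma-voom alone called members, 2 for IUO against PNO: *Grik3* (adjusted p = 0.0462) and *Grik5* (0.0416).

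Counts over all genes depended on the tool. PNO against SAL gave 1 gene with DESeq2. IUO against SAL gave 49 with DESeq2, 43 with limma-voom, 8 with transcript length as a covariate, and 0 to 1 when a pup was left out (1 without SAL replicate 2). IUO against PNO, with 10 as reported, gave 19 without normalization, 436 with DESeq2, 2028 with limma-voom, 72 with only its 12 pups, 1 with the striatal score, 3 with the myelin score, 151 with transcript length, and 1 to 95 when a pup was left out (95 without PNO replicate 5). The cause was not tested. Marker relations that passed went from 3 to 5 given transcript length, an alternative added after seeing the data.

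Replicate numbers did not pair the samples: the mean correlation of same-numbered pups was 0.23 for PNO with SAL, -0.03 for IUO with SAL and 0.06 for IUO with PNO, and the own number was best in 2, 0 and 2 of 6 pups. The replicate block gave 6 genes for IUO against PNO and 0 of the 7 members, with *Grik2* at 0.41 and *Grik5* at 0.24. With counts more than 1 SD from their group mean left out, a value with no test, the log2 ratio of mean raw counts for *Grik5* in IUO relative to SAL went from 0.29 to 0.18, for *Grik2* in PNO relative to SAL from -0.10 to -0.23 and in IUO relative to PNO from 0.49 to 0.64, and for *Grik3* in IUO relative to SAL from 0.12 to 0.35. Some other values moved too, among them *Grik5* in PNO relative to SAL from -0.08 to -0.16 and *Neto1* in the same comparison from -0.09 to -0.17. Depth limits *Grik3* most, at 104 counts in its lowest pup.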
